A study of Populus trichocarpa with 9 samples.

Results

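PtrMYB092 and PtrHSFB3-1 are transcription factors (TFs) of black cottonwood (P. trichocarpa) that were overexpressed, each by itself, in protoplasts of stem-differentiating xylem (SDX). Here the 3 PtrMYB092 libraries were set directly against the 3 PtrHSFB3-1 libraries, 6 of the 9 libraries in the series, over every gene. The other 3 libraries carried GFP alone and were used to place the levels of both TFs. Of 41335 genes in the deposited table, 7594 had values high enough to be tested, after both transgenes had been removed. The protoplasts, cells freed of their walls, came from the SDX of 6-month-old trees. They were transfected by the PEG method with a plasmid that carried PtrMYB092 and sGFP, PtrHSFB3-1 and sGFP, or sGFP alone, each gene behind its own 35S promoter, and were cultured for 12 h before RNA was taken. All 3 constructs thus shared the transfection and the sGFP cassette, and 35S is a strong promoter that is active in most plant cells. Although the 3 libraries of each construct are described as biological replicates, the labels do not tell whether different trees were used, and the p-values cover only the spread among these libraries, part of which may be technical.

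Lignin, the polymer that stiffens and waterproofs wood, is built from monolignols. The pathway that makes them starts with the deamination of phenylalanine by PAL and goes on through C4H and 4CL to an activated cinnamic acid. The ring is hydroxylated while it is held as a shikimate ester (HCT, C3H and CSE). The last steps are methylation, hydroxylation by CAld5H and reduction to the alcohols (CCoAOMT, CCR, CAld5H, AldOMT and CAD). MYB proteins of the R2R3 family are known regulators of this pathway in many plants. Class B heat shock factors are a group of TFs best known as repressors in heat responses.

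The values were whole numbers that the authors labelled raw counts, but low values agreed between libraries better than reads can. Where a gene's values summed to 2 over a pair of libraries, each library had 1 in 81.9% to 97.5% of cases (36 pairs), while at most 50% is expected of random reads. The scale of the values and the reads behind them are thus unknown, and no counting interval is attached. Column totals were 428358 to 448179 with PtrMYB092, 454442 to 495579 with PtrHSFB3-1 and 430158 to 477966 with GFP. Values were scaled by TMM (a trimmed mean of log ratios between libraries), turned into log2(value + 1) and compared in limma, with the replicate number as a block. To be called, a gene needed an adjusted p (Benjamini-Hochberg) below 0.05 and a difference of at least 2-fold in either direction. Values of single libraries are given as deposited, in the order of replicates 1, 2 and 3, and groups are said to overlap or not after scaling. Differences are PtrMYB092 minus PtrHSFB3-1 on that log2 scale, which understates the change of low genes.

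PtrMYB092 (Potri.001G118800) was at 6922, 11036 and 17727 in the PtrMYB092 libraries, against 6, 6 and 4 in the PtrHSFB3-1 libraries and 4, 5 and 4 in the GFP libraries. PtrHSFB3-1 (Potri.006G049200) was at 119, 105 and 165 in the PtrMYB092 libraries, against 19859, 31149 and 42965 in the PtrHSFB3-1 libraries and 67, 53 and 61 in the GFP libraries. Each transgene was high only in the libraries titled for it among these 9. The transgene took 1.57% to 3.96% of the column total with PtrMYB092 and 4.01% to 9.08% with PtrHSFB3-1. These shares were not equal, and the amount of TF protein was not measured. What the TF does and how much of it there was cannot be told apart. The table has a single value per gene, in which transcripts of the plasmid and of the native gene are added together. A label field of PtrMYB092 replicates 2 and 3 names the other TF, whereas their titles, their columns and the values of both transgenes go with PtrMYB092. Without these 2 libraries 243 genes were called higher and 674 lower, against 432 and 693 with them, with PtrMYB092 replicate 1 alone assumed to vary like the other libraries. The cellulose synthase genes that mark xylem cells depositing a secondary wall were at or near 0, so the label of xylem has no support from them. PtCesA4, PtCesA7, PtCesA8, PtCesA17 and PtCesA18 had no value above 2 in any of the 9 libraries. The monolignol genes had also been chosen as markers of such cells. With GFP alone they ranged from Ptr4CL3, at 349, 97 and 114, to PtrCCoAOMT3, listed at 0 in all GFP libraries. Markers of other cell types could not be looked up, as no source used here describes the other genes.

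With PtrMYB092, 432 of the 7594 genes (5.69%) were higher and 693 (9.13%) were lower than with PtrHSFB3-1. In RNA of whole protoplast samples, fewer cells of a kind and less RNA per cell cannot be told apart. Almost every gene that reached a 2-fold difference also passed the adjusted p, with 432 of 434 higher and 693 of 693 lower. The difference was over 4-fold for 101 higher and 238 lower genes and over 10-fold for 24 and 64. The median of the called genes was 1.41 for the higher and -1.64 for the lower, beside 0.04 for all genes tested. Groups that did not overlap were common over all genes, with all 3 PtrMYB092 libraries above all 3 PtrHSFB3-1 libraries for 17.6% and below for 17.2%. Among the called genes they numbered 388 of 432 and 577 of 693. The lower genes outnumbered the higher ones by a margin that was not seen without PtrHSFB3-1 replicate 1, when 542 genes were higher and 516 lower, and was small without all libraries numbered 1, when 441 were higher and 449 lower. Without PtrMYB092 replicate 3 the higher genes numbered 285. Scaling to column totals alone moved the median of all genes to 0.15 and gave 517 higher and 618 lower genes.

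**Figure D1:**
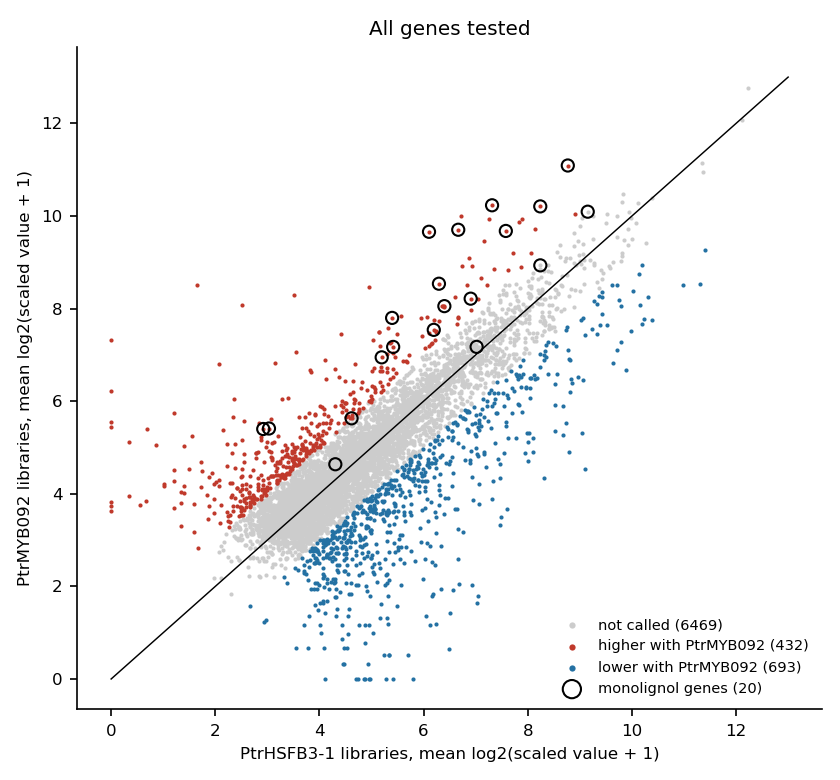
Mean log2(scaled value + 1) over the 3 PtrMYB092 libraries (vertical axis) against the mean over the 3 PtrHSFB3-1 libraries (horizontal axis) for the 7594 genes tested, with the 432 genes called higher with PtrMYB092 in red, the 693 called lower in blue and the 20 tested monolignol genes circled. The circled genes lie on or above the diagonal, and blue points at the bottom edge are genes listed at 0 in all 3 PtrMYB092 libraries.

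The GFP libraries shared the scaling and the fit but were in neither mean of the difference, and were used to see where a gene stood with GFP alone. Of the 432 genes higher with PtrMYB092, the mean with GFP was nearer to that with PtrHSFB3-1 for 291 (67.4%), and 149 had GFP at or below the PtrHSFB3-1 level. Of the 693 lower genes, the mean with GFP was nearer to that with PtrMYB092 for 582 (84.0%), and it lay above the PtrHSFB3-1 level for 10. GFP lay within 0.25 of the gap (on the log2 scale) from the construct with the lower level, or beyond it, for 215 of the higher and 366 of the lower genes. Exceptions were not rare, since GFP was nearer to the construct with the higher level for 141 of the higher and 111 of the lower genes. GFP had the highest mean of the 3 constructs for 35 of the higher genes and the lowest for 137 of the lower genes. Over all genes tested GFP was nearer to PtrMYB092 for 4609 and nearer to PtrHSFB3-1 for 2985. The filter for level bears on these counts. Of the called genes, 164 of the 432 higher and 271 of the 693 lower passed it only through the construct in which they were high. For such genes the filter limits how high GFP could be, and so favours GFP near the lower construct. The orders were not counted without these genes, and no test was made of them.

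**Figure D2:**
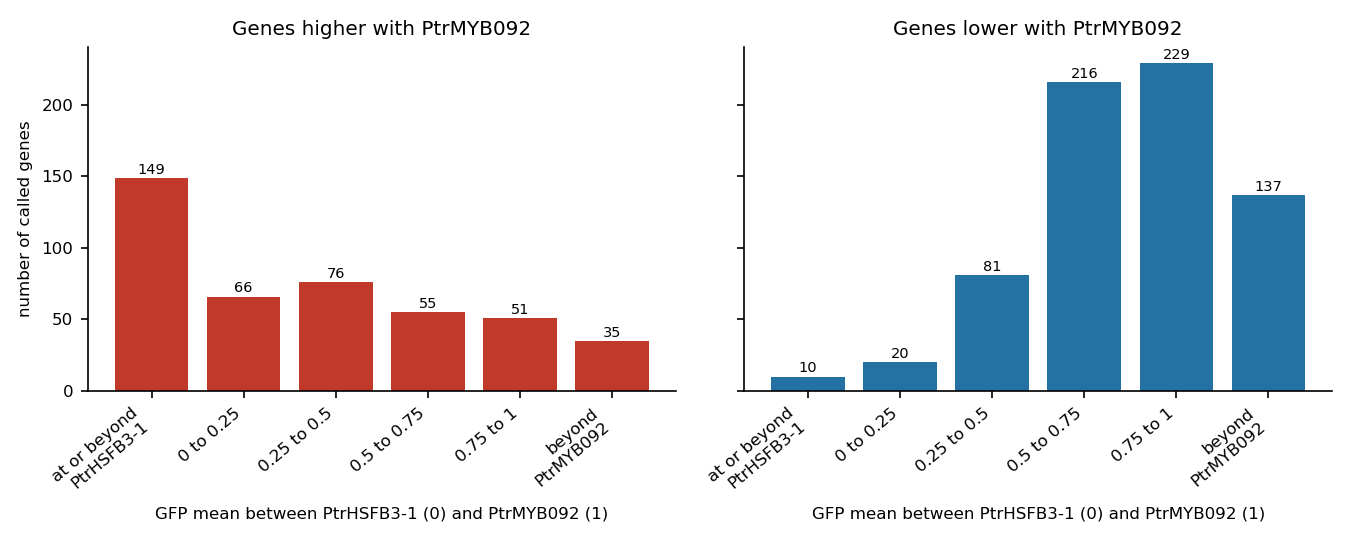
Number of called genes by the place of the GFP mean on a log2 scale that runs from 0 at the PtrHSFB3-1 mean to 1 at the PtrMYB092 mean, for the 432 genes higher with PtrMYB092 (left) and the 693 lower (right). The tallest bar holds 149 genes with GFP at or beyond PtrHSFB3-1 on the left and 229 genes with GFP close to PtrMYB092 on the right.

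The monolignol genes were the main group of genes with names. Of 22 with an ID in the study's primer table, 20 were tested, 16 were higher with PtrMYB092, 0 were lower (also 0 at an unadjusted p under 0.05 in limma, as the lowest difference was 0.16) and 4 were not called, where 5.69% of all genes were higher and 9.13% lower. Their median difference was 1.86, beside 0.04 over all genes tested, and in 14 of the 20 the 3 PtrMYB092 libraries all lay above the 3 PtrHSFB3-1 libraries after scaling (in 17 in the deposited values). The study chose these genes in part on these same libraries, so their direction is not independent evidence. PtrHCT1 and PtrHCT6 passed the filter only through the PtrMYB092 libraries, which favours a higher level there, so their direction is no finding. The count of higher genes was 13 without the replicate block, 13 to 18 when single libraries were left out and 11 without PtrMYB092 replicates 2 and 3. No monolignol gene was called lower under any of the settings tried. PtrActin (Potri.019G010400), an actin gene in the study's primer table, was at 91, 104 and 86 with PtrMYB092 and at 89, 108 and 113 with PtrHSFB3-1, a difference of -0.20 (adjusted p = 0.232).

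Several enzymes of the pathway come in near-identical copies, and the sources used here do not state how reads shared by copies were counted. The study's RT-qPCR forward primers show how alike the copies are at the primer sites, a short part of each gene. In the lines that follow, capitals mark the bases that do not match the other member of the pair, and each gene's chromosome, taken from its ID, is given beside it. PtrPAL4 and PtrPAL5, neighbours on chromosome 10, match at 23 of 25 bases, PtrPAL1 (chromosome 6) and PtrPAL3 (chromosome 16) at 23 of the 24 that can be aligned, and PtrC4H1 (chromosome 13) and PtrC4H2 (chromosome 19), the pair that split furthest below, at 15 of 23.
PtrPAL4: gagatgctggaagctatcaccaaAT
PtrPAL5: gagatgctggaagctatcaccaaGC
PtrPAL1: CcatccaggtcaaattgaggctgcT
PtrPAL3: catccaggtcaaattgaggctgcA
PtrC4H1: aGtgCgcCatAgaCcatatCCtC
PtrC4H2: GAaAtgTgcAatTgaTcatatTTtG
The reverse primers of PtrPAL4 and PtrPAL5 are the same over all 21 bases. With shared reads counted in a way that is not stated, values of single PAL genes are uncertain.

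All 5 PAL genes, which encode the enzyme that commits phenylalanine to the pathway, were higher with PtrMYB092. PtrPAL2 (Potri.008G038200) was at 913, 741 and 933 with PtrMYB092, against 243, 68 and 59 with PtrHSFB3-1 and 27, 5 and 2 with GFP, a difference of 3.04 (SE 0.47, adjusted p = 0.000861). PtrPAL1 (Potri.006G126800) was at 1919, 883 and 1119 with PtrMYB092, against 399, 86 and 111 with PtrHSFB3-1 and 122, 41 and 37 with GFP, a difference of 2.92 (SE 0.23, adjusted p = 1.93e-05). In both genes the groups did not overlap. PtrPAL3 (Potri.016G091100) was at 1277, 654 and 716 with PtrMYB092, against 606, 88 and 124 with PtrHSFB3-1, and differed by 2.10 (adjusted p = 0.005). PtrPAL4 (Potri.010G224100) was at 1363, 1033 and 1281 with PtrMYB092, against 501, 207 and 255 with PtrHSFB3-1 and 76, 8 and 3 with GFP, and differed by 1.97 (adjusted p = 0.029). PtrPAL5 (Potri.010G224200) was at 359, 255 and 310 with PtrMYB092, against 231, 72 and 97 with PtrHSFB3-1 and 18, 2 and 1 with GFP, and differed by 1.31 (adjusted p = 0.0406). In every PAL gene, replicate 1 was the highest of the PtrHSFB3-1 libraries. The calls of PtrPAL3, PtrPAL4 and PtrPAL5 rested on the replicate block, with adjusted p of 0.225, 0.194 and 0.312 without it. The call of PtrPAL4 was also lost without any of 4 single libraries (PtrMYB092 replicates 2 and 3 and PtrHSFB3-1 replicates 1 and 2, adjusted p of 0.0616 to 0.143), and that of PtrPAL5 without any of the same 4 or GFP replicate 2 (0.0604 to 0.181). Without PtrMYB092 replicates 2 and 3, the differences of PtrPAL3, PtrPAL4 and PtrPAL5 were 0.67, 0.55 and 0.10.

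Cinnamate 4-hydroxylase, the next enzyme, split between its copies. PtrC4H2 (Potri.019G130700) was at 822, 738 and 950 with PtrMYB092, against 129, 61 and 38 with PtrHSFB3-1 and 57, 33 and 21 with GFP. Its difference of 3.56 (SE 0.32, adjusted p = 3.84e-05), an 11.8-fold level, was the highest of the monolignol genes. PtrC4H1 (Potri.013G157900) was at 585, 363 and 599 with PtrMYB092, against 449, 207 and 285 with PtrHSFB3-1 and 113, 11 and 13 with GFP. The libraries of the TFs overlapped in this gene, and its difference of 0.69 (SE 0.48) was not called (adjusted p = 0.281). In a limma fit of the 6 TF libraries alone the adjusted p was 0.0344, and only the 2-fold limit was missed. With single libraries left out it ran from 0.0162 (GFP replicate 1) to 0.662 (PtrMYB092 replicate 3). PtrC4H1 was called when PtrMYB092 replicate 1 was left out (difference 1.30, adjusted p = 0.0466). Its difference was -0.41 when only that PtrMYB092 library was kept. Against GFP, PtrC4H1 stood 4.27 higher with PtrMYB092 and 3.58 higher with PtrHSFB3-1, whereas PtrC4H2 stood 4.61 higher and 1.05 higher. 4-Coumarate CoA ligase, which activates the acid for the later steps, showed a smaller split. Ptr4CL5 (Potri.003G188500) was at 182, 128 and 138 with PtrMYB092, against 68, 32 and 32 with PtrHSFB3-1 (difference 1.76, adjusted p = 6.89e-05), and the groups did not overlap. Ptr4CL3 (Potri.001G036900) was at 1293, 904 and 1216 with PtrMYB092, against 792, 422 and 529 with PtrHSFB3-1. Its difference of 0.94 passed the adjusted p (0.0172) but not the 2-fold limit, which it passed under scaling to column totals (1.05).

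The steps on the shikimate ester had 4 of 5 genes higher with PtrMYB092. Of these, PtrHCT1 and PtrHCT6 passed the filter only through the PtrMYB092 libraries, so no test is given for them. PtrHCT1 (Potri.003G183900) encodes a transferase that builds the ester. It was at 52, 35 and 42 with PtrMYB092, against 9, 6 and 5 with PtrHSFB3-1 and 19, 11 and 9 with GFP. It differed by 2.48. With PtrHSFB3-1 it was the lowest of the 3 constructs, 0.74 below GFP. PtrHCT6 (Potri.001G042900) is of the same family. It was at 61, 32 and 40 with PtrMYB092, against 20, 4 and 4 with PtrHSFB3-1 and 4, 1 and 1 with GFP. It differed by 2.38. PtrC3H3 (Potri.006G033300), the hydroxylase of the ester, was at 127, 106 and 149 with PtrMYB092, against 54, 26 and 31 with PtrHSFB3-1, and differed by 1.75 (adjusted p = 0.000258). In these 3 genes no PtrMYB092 library fell as low as a PtrHSFB3-1 library. Caffeoyl shikimate esterase, which releases caffeic acid, had a gene on each side of the threshold. PtrCSE1 (Potri.003G059200) was at 190, 122 and 139 with PtrMYB092, against 166, 104 and 119 with PtrHSFB3-1 and 55, 29 and 26 with GFP. Its difference of 0.16 (SE 0.14, adjusted p = 0.414) was the smallest in the pathway, and both TFs stood above GFP in every library of the same replicate number. PtrCSE2 (Potri.001G175000) was at 41, 40 and 76 with PtrMYB092, against 25, 21 and 24 with PtrHSFB3-1, and differed by 1.01 (adjusted p = 0.00228), just over the 2-fold limit. It fell under that limit without PtrMYB092 replicate 3 (0.79) or PtrHSFB3-1 replicate 3 (0.86).

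Of the 8 genes of the last steps (methylation, hydroxylation by CAld5H and reduction), 5 were higher with PtrMYB092, 1 was not called and 2 were too low to test. PtrCCoAOMT2 (Potri.001G304800), a methyltransferase on the way to guaiacyl lignin, was at 2536, 1648 and 2711 with PtrMYB092, against 755, 265 and 398 with PtrHSFB3-1 and 162, 43 and 46 with GFP, a difference of 2.32 (SE 0.29, adjusted p = 0.000278). PtrCCoAOMT1 (Potri.009G099800) was at 233, 239 and 364 with PtrMYB092, against 96, 72 and 81 with PtrHSFB3-1, and differed by 1.65. PtrCCR2 (Potri.003G181400), the reductase that makes the aldehyde, was at 407, 318 and 430 with PtrMYB092, against 87, 76 and 68 with PtrHSFB3-1, and differed by 2.24 (adjusted p = 3.07e-05). The groups did not overlap in any of these genes. PtrAldOMT2 (Potri.012G006400), the methyltransferase of the syringyl branch, was at 285, 191 and 219 with PtrMYB092, against 82, 30 and 27 with PtrHSFB3-1 and 85, 29 and 31 with GFP, and differed by 2.40 (SE 0.23, adjusted p = 5.03e-05). With PtrHSFB3-1 it stood at the GFP level, 0.04 above it. PtrCAD1 (Potri.009G095800), which makes the alcohol in the last step, was at 147, 245 and 193 with PtrMYB092, against 48, 110 and 69 with PtrHSFB3-1 and 62, 129 and 94 with GFP, and differed by 1.35 (adjusted p = 6.76e-05). Like PtrHCT1, it was lowest with PtrHSFB3-1. PtrCAld5H2 (Potri.007G016400), the hydroxylase that opens the syringyl branch, was at 15, 38 and 26 with PtrMYB092, against 16, 21 and 19 with PtrHSFB3-1 and 13, 35 and 35 with GFP, and its difference of 0.33 was not called (adjusted p = 0.263). Its copy PtrCAld5H1 (Potri.005G117500) was not tested and was at 1, 5 and 12 with PtrMYB092, against 0, 1 and 1 with PtrHSFB3-1 and 1, 1 and 2 with GFP. PtrCCoAOMT3 (Potri.008G136600) had no value above 1. GFP was the lowest construct in 17 of the 20 tested genes of the pathway and between the TFs in the other 3.

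**Figure D3:**
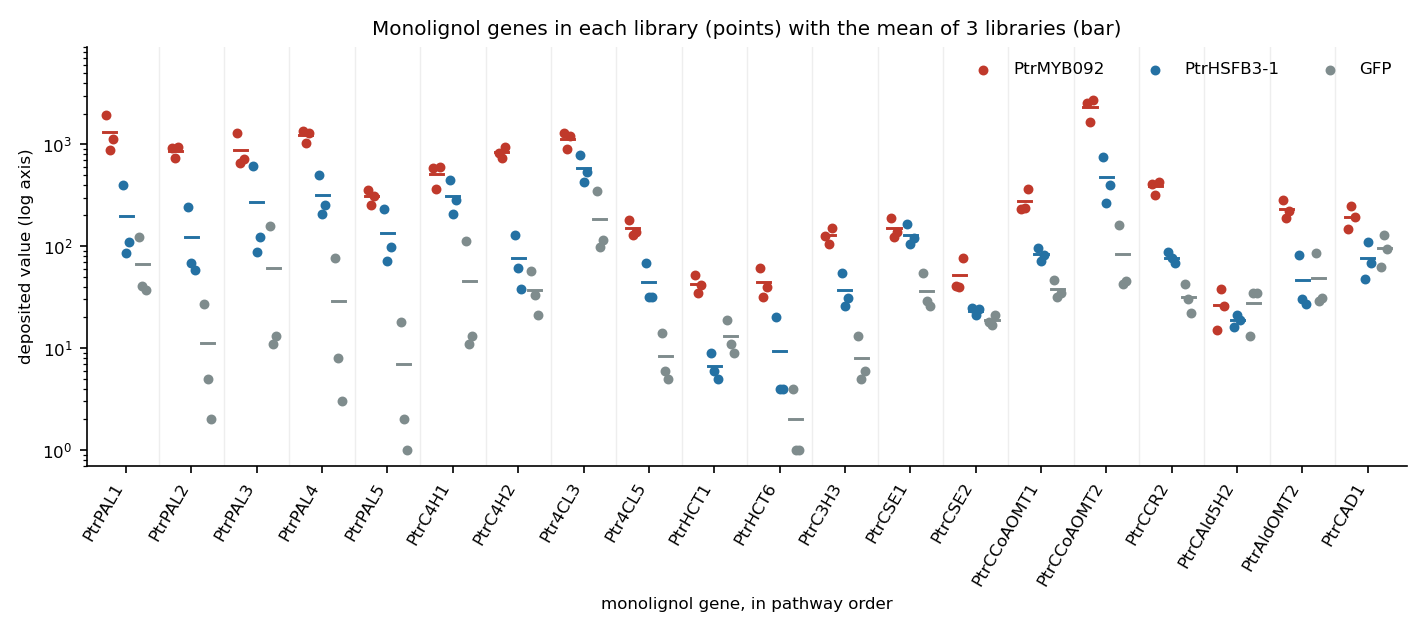
Deposited values (log axis) of the 20 tested monolignol genes in pathway order, with a point for each PtrMYB092 (red), PtrHSFB3-1 (blue) and GFP (grey) library and a bar at the mean of 3 libraries. All red points lie above all blue points in 17 genes, before scaling, while PtrC4H1 and PtrCSE1 have red and blue points side by side and grey points below both.

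The size of the difference varied with the replicate number. Over the 20 tested genes the median difference was 1.31 between the libraries numbered 1, 1.94 between those numbered 2 and 2.28 between those numbered 3. Over all genes tested these medians were 0.05, 0.02 and 0.01. The value of replicate 1 exceeded the mean of the other two in 16 of the 20 genes with PtrMYB092 (median 0.34), in 18 with PtrHSFB3-1 (median 1.12) and in 17 with GFP (median 1.28), so the pathway was high in the first libraries of all constructs and least so with PtrMYB092. What a replicate number stands for is not stated in the labels or the paper, and its part in the result was not tested beyond the block. The transgene's share of the column total rose with the replicate number. It was 1.57%, 2.58% and 3.96% with PtrMYB092 and 4.01%, 6.85% and 9.08% with PtrHSFB3-1. A link between this share and the differences was not tested. With all libraries numbered 1 left out, 16 monolignol genes were again higher, but they included Ptr4CL3 (difference 1.17) and not PtrHCT6, which was no longer tested.

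**Figure D4:**
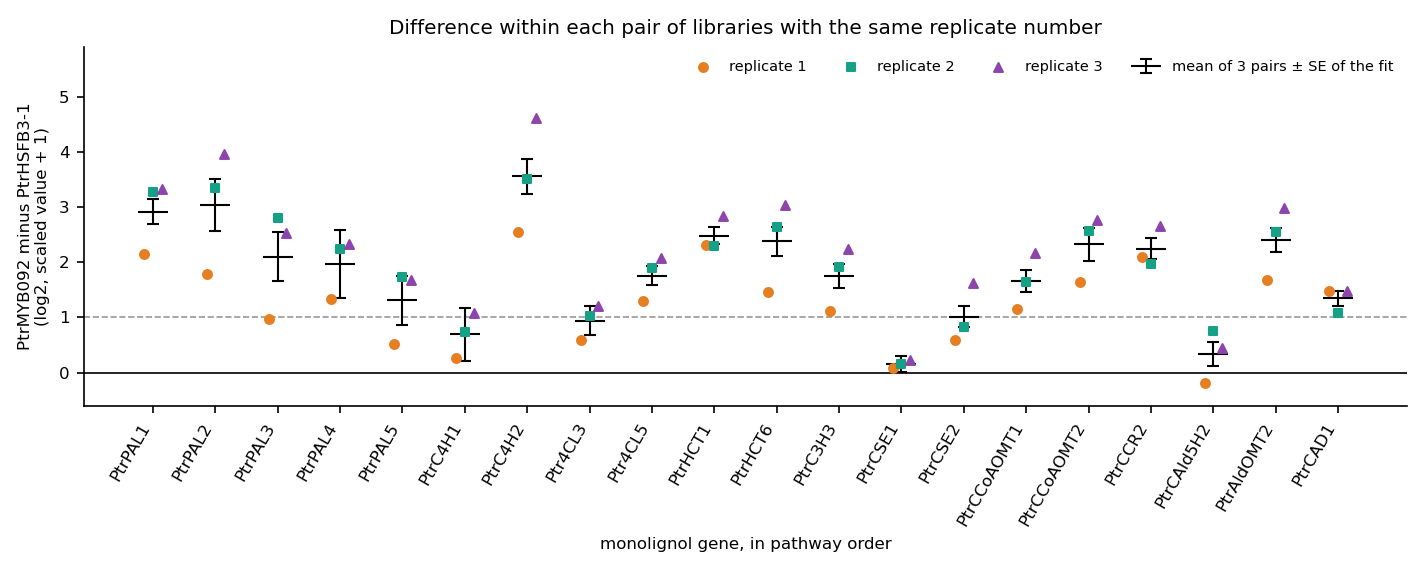
Difference in log2(scaled value + 1), PtrMYB092 minus PtrHSFB3-1, between the libraries of the same replicate number (points) for the 20 tested monolignol genes in pathway order, with the mean of the 3 pairs and the standard error of the fit in black and the 2-fold limit as a dashed line. The orange points of replicate 1 are the lowest in most genes, and PtrCAld5H2 is the gene with a point below 0.

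Whether the TFs shift the balance between copies of an enzyme was compared within each library, as the log2 ratio of the scaled value (with 1 added) of a copy to that of the other copy. Gene length drops out, but for the added 1, of the change in such a ratio, but not out of the ratio itself. PtrC4H2 over PtrC4H1 was 0.73 ± 0.27 with PtrMYB092 and -2.14 ± 0.64 with PtrHSFB3-1 (SD, n = 3 libraries each), a ratio 2.86 higher with PtrMYB092. The ratio of PtrPAL2 to PtrPAL4 was 1.07 higher, that of PtrPAL1 to PtrPAL3 0.82 higher, that of PtrPAL4 to PtrPAL5 0.66 higher, that of Ptr4CL5 to Ptr4CL3 0.82 higher and that of PtrCSE2 to PtrCSE1 0.86 higher with PtrMYB092. In these 6 pairs the 3 ratios with PtrMYB092 all lay above the 3 with PtrHSFB3-1. A two-sided exact permutation test gave p = 0.1 for each of them, the smallest that 3 libraries against 3 allow, and 0.133 after Benjamini-Hochberg adjustment over the 8 pairs compared. PtrCCoAOMT2 over PtrCCoAOMT1 was 0.67 higher with PtrMYB092 (exact permutation p = 0.3). Between libraries of the same replicate number, the ratio was higher with PtrMYB092 in all 3 pairs for 7 of the 8 ratios, PtrCCoAOMT2 over PtrCCoAOMT1 among them (0.48, 0.92 and 0.61), and PtrC4H2 over PtrC4H1 was 2.28, 2.77 and 3.54 higher. An exact sign-flip test over these pairs, added after the data had been seen, cannot go below p = 0.25, which it gave for each of the 7, so neither exact test could pass 0.05. PtrHCT6 over PtrHCT1 was 0.01 ± 0.19 with PtrMYB092 and 0.11 ± 0.84 with PtrHSFB3-1 (SD, n = 3 libraries each), a spread that leaves room for a shift of the size seen in the other pairs. Both genes passed the filter only through the PtrMYB092 libraries and were at 4 to 20 with PtrHSFB3-1. No test is read from this pair, although it counts among the 8 in the adjustment.

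Genes of the other wall polymers had too little signal to compare. The 5 secondary wall CesA genes, which encode subunits of the cellulose synthase complex, were not tested. PtrIRX10-1 (Potri.001G068100), of a family that builds the xylan backbone, was at 1, 1 and 1 with PtrMYB092 and listed at 0 in the other 6 libraries. PtrCslA2 (Potri.010G234100), of a mannan synthase family, was at 1 in PtrMYB092 replicate 1 alone. PtCesA18 (Potri.004G059600) was at 1 in PtrMYB092 replicate 3 alone. Nothing can be read from values of this size.

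The differences of greatest size were in genes to which no source used here gives a name, low or at 0 with 1 of the TFs. Of the 10 genes highest with PtrMYB092 among those called with groups that did not overlap, 4 were listed at 0 in all PtrHSFB3-1 libraries. Potri.010G085200 (chromosome 10) was at 161, 140 and 195 with PtrMYB092 and listed at 0 in all PtrHSFB3-1 and GFP libraries. Potri.008G073700 (chromosome 8) was at 353, 293 and 507 with PtrMYB092, against 4, 1 and 2 with PtrHSFB3-1 and 1, 0 and 1 with GFP, a difference of 6.86. The 10 genes lowest with PtrMYB092 had the reverse pattern, and 4 were listed at 0 in all PtrMYB092 libraries. Potri.007G074400 (chromosome 7) was at 1, 1 and 0 with PtrMYB092, against 51, 98 and 136 with PtrHSFB3-1 and 1, 0 and 1 with GFP, a difference of -5.84. Potri.003G075800 (chromosome 3) was listed at 0 in all PtrMYB092 libraries, against 55, 51 and 55 with PtrHSFB3-1 and 1, 0 and 1 with GFP. These 4 genes were picked for the size of their difference and passed the filter only through the construct in which they were high, so no test is given for them. Over the 20 genes no GFP value exceeded 23. The size of such differences depends on the 1 added before the logarithm, and with 5 added those of Potri.008G073700 and Potri.007G074400 were 5.66 and -4.07. Over all called genes, 7 of the higher were listed at 0 in all PtrHSFB3-1 libraries and 10 of the lower in all PtrMYB092 libraries, and 164 of the 432 and 271 of the 693 passed the filter only through the construct in which they were high.

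Some called genes lay beside each other in the order of IDs. Taking as a run any stretch with at least 3 called genes of a direction among 5 consecutive IDs, 4 runs with 16 called genes were higher with PtrMYB092 and 21 runs with 87 called genes were lower. PtrPAL4, PtrPAL5 and the next ID on chromosome 10 formed a run of the higher genes. The longest run lay on chromosome 4, where all 12 tested genes among 16 consecutive IDs were lower with PtrMYB092. All 12 passed the filter only through the PtrHSFB3-1 libraries, which favours genes lower with PtrMYB092, so their common direction is no finding. Their values were 0 to 10 in the PtrMYB092 libraries, against 21 to 167 in the PtrHSFB3-1 libraries and at most 14 in the GFP libraries, and 5 of them were listed at 0 in all PtrMYB092 and GFP libraries. Several members of the run had almost the same values, for instance 74, 26 and 31, 72, 25 and 26, and 74, 28 and 28 in the PtrHSFB3-1 libraries for 3 of them. As the counting of shared reads is not stated, the number of separately expressed genes in the run is uncertain. Over chromosome 4 as a whole, 3.47% of 432 tested genes were higher and 13.0% lower. Over all genes tested these shares were 5.69% and 9.13%. The share of lower genes on chromosome 4 includes the 12 genes of the run. It was 13.6% on chromosome 11 and 12.2% on chromosome 17.

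**Figure D5:**
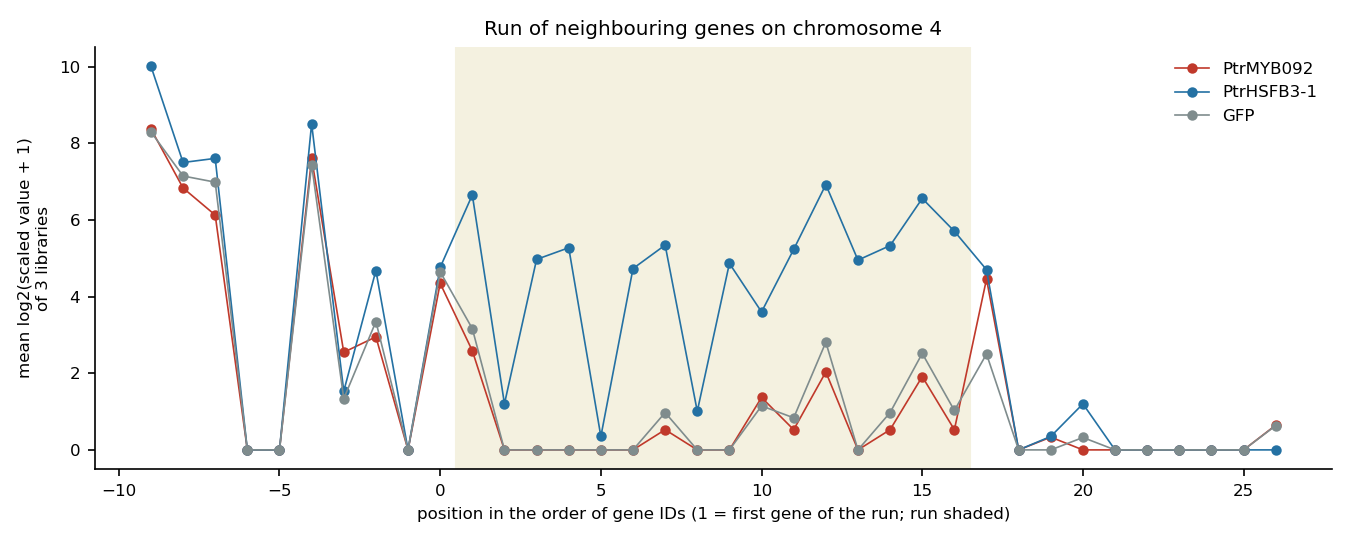
Mean log2(scaled value + 1) of the 3 PtrMYB092 (red), PtrHSFB3-1 (blue) and GFP (grey) libraries for genes in the order of their IDs on chromosome 4, with the run of 16 IDs shaded. Blue stands above red and grey at each of the 16 shaded positions, and the constructs lie close together at the ID on the left of the shaded area.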

How the data were processed

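RNA-seq of 9 libraries of SDX protoplasts was analysed from 1 deposited table of genes by libraries. Bowtie 2 was the authors' aligner to the P. trichocarpa genome in their methods, while TopHat is the name in the submitters' processing notes. How reads were then counted (tool, strand, shared reads) is not stated in any source used here. The deposited values, which the authors labelled raw counts, were used as a score, a whole number on an unstated scale, because low values scattered less than random reads. Tests made for read counts were therefore not used.

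Both transgenes were removed, values were scaled by TMM (30% of ratios and 5% of levels trimmed at each end), a pseudocount of 1 was added, and limma 3.58.1 in R 4.3.3 was fitted to log2 values of all 9 libraries, with 1 mean per construct, a block for the replicate number, a variance trend and 4 residual degrees of freedom. The filter kept genes that reached 10, after scaling to the median column total, in 3 or more libraries and 15 in sum. The labels give equal replicate numbers to the constructs, and deviations from the construct means had correlations of 0.52 to 0.86 (across genes) in 9 same-numbered pairs of libraries, against -0.71 to 0.27 in 18 other pairs, and the numbers were taken to pair the libraries.

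Genes named are those that the paper's tables pair with a name and the largest differences in each direction, of which at most 2 each without a name. These members, the lists (monolignol, CesA and tension wood genes) and the tests were chosen with earlier results of these data known. The reference table held none of the 41335 IDs, so no coordinates are given, runs follow the order of IDs, and lists that need gene descriptions were not made. Alternatives were other scalings, pseudocounts, filters and thresholds, a fit of 6 libraries, no block, no variance trend, the transgenes kept in, and libraries left out.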

Additional observations from a re-analysis of the deposited data

How the results depend on the processing

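In no setting did a gene called here turn to a call in the other direction. Without the replicate block, which pairs libraries of the same number, 347 genes were higher, 500 lower and 13 monolignol genes higher. With no filter 934 genes were higher and 1579 lower, and with a filter at 30 these were 200 and 373. With no minimum fold 1420 were higher and 1647 lower, and with the fold limits the study states (over 2 or under 0.8) 1642 were lower. Leaving out single libraries gave 285 to 542 higher and 516 to 727 lower genes. Leaving out all libraries of a replicate number gave 249 to 441 higher and 449 to 542 lower genes, the lowest counts being those without replicate 3 (249 higher) and without replicate 1 (449 lower). Without PtrMYB092 replicates 2 and 3, 243 genes were higher. The share of higher genes among all called was 38.4%, against 51.2% without PtrHSFB3-1 replicate 1, 49.6% without replicate 1, 26.5% without PtrMYB092 replicates 2 and 3 and 20.8% with the study's fold limits. Scalings, pseudocounts, the fit of 6 libraries, the variance trend, the transgenes kept in and an adjusted p under 0.01 moved the counts by less than 1.5 times. Of the values of named genes, 515 stayed on the same side of the threshold in the settings that refitted the data, 27 lost their call and 5 gained one. The changed thresholds are not part of this count. The number of reads is unknown, so a gene listed at 0 may be expressed below what these libraries could show.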

Other observations

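Genes that the study lists as changed in tension wood, the wood that forms on the upper side of a bent stem, after 3 d of bending come from another experiment and were counted in the same comparison. Of 145 listed as repressed by bending, 42 were tested, 15 were higher with PtrMYB092 than with PtrHSFB3-1 and 7 were lower, with a median difference of 0.38. Among them were 3 monolignol genes, all higher, and without those 12 of 39 tested genes were higher and 7 lower (median 0.22). Of 244 listed as induced by bending, 34 were tested, 4 were higher and 6 were lower (median -0.03). Over all genes tested 5.69% were higher and 9.13% lower, with a median of 0.04. Some genes passed the filter only through 1 construct, which favours a higher level there without fixing the direction. Through PtrMYB092 these were 2 of the repressed and 3 of the induced genes, and through PtrHSFB3-1 6 and 5. Over all genes tested they numbered 733 and 693. Most of both lists was too low in the protoplasts to be tested, with 46 and 114 genes listed at 0 in all 9 libraries, and no test of the lists was made.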
